A study of Mus musculus with 3 samples.

Results

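The expression of 6 genes for secreted matrix proteins, *Postn*, *Tgfbi*, *Tnc*, *Tnn*, *Sparc*, and *Fn1*, was described in single cells of mouse fracture callus. They were chosen by name from the 32285 genes in the files, and each symbol matched 1 row. The question was how far *Tgfbi* and the tenascins follow *Postn* from cell to cell in 4 kinds of callus cells, and on which days. Callus was taken from the broken femurs of otherwise untreated C57BL/6 mice at day 7, day 10, and day 14 after fracture, digested with collagenase, and sorted for live cells without CD45, CD31, and TER119, markers of blood and endothelial cells. Most cells of the day 7 library nevertheless had RNA of *Ptprc*, the gene for CD45. The labels of these libraries name no transgene or deletion, and the age of the mice and how many were pooled are not given in the sources used here. Each day gave 1 droplet library, so there were no replicates. All intervals below cover counting error only, and no difference was tested between mice.

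Periostin (*Postn*) and TGFBI (*Tgfbi*) are paralogs built of fasciclin domains, and both are laid down in collagen-rich matrix. Periostin binds collagen, fibronectin, and tenascin-C, and it brings BMP-1 to lysyl oxidase, the enzyme that starts collagen cross-linking. It takes its name from the periosteum, where it is abundant. Tenascin-C (*Tnc*) and tenascin-W (*Tnn*) are large glycoproteins of developing and wounded connective tissue, and tenascin-W is best known from bone and periosteum. SPARC (*Sparc*), also called osteonectin, is a collagen-binding protein of mineralizing matrix. Fibronectin (*Fn1*) forms the early fibrillar scaffold to which the others attach. Only mRNA was measured here, not the proteins in the matrix.

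In the GENCODE M21 annotation of GRCm38, *Postn* (ENSMUSG00000027750) lies on chromosome 3 from 54361109 to 54391037 on the plus strand, and *Tgfbi* (ENSMUSG00000035493) on chromosome 13 from 56609523 to 56639562 on the plus strand. *Tnc* (ENSMUSG00000028364) lies on chromosome 4 from 63959785 to 64047015 and *Tnn* (ENSMUSG00000026725) on chromosome 1 from 160085029 to 160153580, both on the minus strand. *Sparc* (ENSMUSG00000018593) lies on chromosome 11 from 55394500 to 55423183 and *Fn1* (ENSMUSG00000026193) on chromosome 1 from 71585520 to 71653200, both on the minus strand. A gene on the other strand overlaps *Tnc*, with 79 UMIs in all against 101229 for *Tnc*, and another overlaps *Fn1*, with 478 UMIs against 2100198. *Postn*, *Tgfbi*, *Tnn*, and *Sparc* had 495770, 101119, 139197, and 6535668 UMIs over all deposited barcodes.

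The stretches before the RefSeq starts of *Postn*, *Tnn*, *Tnc*, and *Tgfbi* (build GRCm38.p6) are shown because these are the 4 transcripts whose cell to cell agreement is described below. RefSeq promoters were matched for 5 of the 6 genes, all but *Fn1*. Bases that GENCODE places inside a gene were left off. Capitals mark a TATA box (TATAAA), a GC box (GGGCGG), an AP-1 motif (TGANTCA), a SMAD motif (CAGACA), or an E-box of the form CATNTG on either strand, and no 2 of the marked motifs overlap. E-boxes of other forms of CANNTG are not marked.
Postn, chr3:54360857-54361106, plus strand: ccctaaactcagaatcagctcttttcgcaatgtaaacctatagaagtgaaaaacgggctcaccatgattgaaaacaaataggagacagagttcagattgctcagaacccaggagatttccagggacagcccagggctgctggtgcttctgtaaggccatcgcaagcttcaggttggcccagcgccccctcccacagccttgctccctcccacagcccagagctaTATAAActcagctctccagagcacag
Tnn, chr1:160153581-160153825, minus strand: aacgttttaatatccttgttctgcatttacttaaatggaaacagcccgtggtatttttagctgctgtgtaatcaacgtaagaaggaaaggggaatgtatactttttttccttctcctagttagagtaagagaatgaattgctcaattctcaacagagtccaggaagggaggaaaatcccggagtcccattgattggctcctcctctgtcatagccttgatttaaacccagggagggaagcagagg
Tnc, chr4:64047016-64047265, minus strand: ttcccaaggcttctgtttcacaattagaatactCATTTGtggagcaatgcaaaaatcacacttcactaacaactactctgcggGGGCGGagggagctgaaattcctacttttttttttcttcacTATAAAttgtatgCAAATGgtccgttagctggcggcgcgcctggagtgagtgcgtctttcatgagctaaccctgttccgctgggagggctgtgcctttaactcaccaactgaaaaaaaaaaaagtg
Tgfbi, chr13:56609336-56609522, plus strand: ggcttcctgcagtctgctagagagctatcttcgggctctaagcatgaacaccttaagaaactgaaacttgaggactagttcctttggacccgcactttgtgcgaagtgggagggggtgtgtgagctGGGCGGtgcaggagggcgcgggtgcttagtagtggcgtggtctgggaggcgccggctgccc

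*Postn* has a TATA box 26 bases before its start, and *Tnc* has the same letters 126 bases before its start. Of 32851 promoter windows of 250 bases, 12.4% hold TATAAA, 32.7% the GC box, 6.75% the AP-1 motif, 17.1% the SMAD motif, and 35.0% CATNTG. The *Tgfbi* window had a GC content of 62.4%, *Postn* 52%, *Tnc* 44.8%, and *Tnn* 42%, against a median of 52.4% over all windows. None of the 5 motifs was found in the *Tnn* window, which says only that these letters are not in it.

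Cells were kept with no UMI of *Ptprc* and at least 5000 UMIs, and each was thinned to 5000 UMIs, so that all cells are compared at 1 depth. This left 233 of the 7017 cells within the study's quality limits at day 7, 6251 of 6593 at day 10, and 8843 of 9853 at day 14. The day 7 library stands apart, since only 447 of its cells had no UMI of *Ptprc*. In its *Aspn*-high and *Cnmd*-high cells the 6 hematopoietic markers, of which *Ptprc* is at 0 by selection, summed to 2104 and 2083 counts per 1000000 UMIs (CPM), against 0 to 320 in the 4 classes at the later days. Median raw depth was 16719 to 18681 UMIs per cell used. The libraries shared 29 (days 7 and 10), 42 (days 7 and 14), and 35 (days 10 and 14) deposited barcodes. A cell was placed in the first class whose cut it passed, in the order *Ifitm5* (5 UMIs of 5000), *Col10a1* (20), *Cnmd* (5), and *Aspn* (5). These classes are ranges of 1 marker, not cell types.

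The classes were set beside marker lists for the lineage, leaving out the gene that was cut on, whose level is fixed by the cut. *Aspn*-high cells had 4712 and 4283 CPM of the 5 other fibroblastic progenitor markers at days 10 and 14, against 196 to 1241 in the other classes. From these same libraries, the paper described its *Postn*-expressing osteoprogenitor cluster by *Postn*, *Aspn*, *Ogn*, and *Ptn*. The *Aspn* cut and these markers were also chosen with earlier results of these data known. The sums thus describe the class and are no independent support for it, and neither is its level of *Postn*. *Cnmd*-high cells had the highest sum of the 6 other chondrocyte markers, *Col10a1*-high cells that of the 3 other hypertrophic chondrocyte markers, and *Ifitm5*-high cells that of the 5 other osteoblast markers. *Col10a1*-high cells also held 30572 and 18803 CPM of those osteoblast markers, against 69627 and 64596 in *Ifitm5*-high cells. Markers of other cells were not absent from *Aspn*-high cells, in which 3 pericyte markers summed to 229 and 314 CPM and 3 tenocyte markers to 518 and 550. Cells with *Mki67* or *Top2a* made up 14.9% of *Aspn*-high cells at day 10 and 6.55% at day 14. Without these cycling cells, r of *Tnn* with *Postn* in *Aspn*-high cells, described below, was 0.557 at day 10 and 0.495 at day 14. The part of pericyte-like and tenocyte-like RNA in the results was not tested.

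*Postn*, *Tnc*, and *Tnn* were concentrated in *Aspn*-high cells at day 10 and day 14, and *Tgfbi* was spread between *Aspn*-high and *Cnmd*-high cells. *Aspn*-high cells were 25.2% of the cells used at day 10 and held 66.1% of all *Postn* UMIs, 60.7% of *Tnc*, and 58.5% of *Tnn*, but 40.4% of *Tgfbi*, 23.6% of *Sparc*, and 17.2% of *Fn1*. At day 14 they were 38.5% of the cells and held 78.4% of *Postn*, 67.2% of *Tnc*, 69.7% of *Tnn*, 62.4% of *Tgfbi*, 38.4% of *Sparc*, and 30.3% of *Fn1*. *Sparc* was thus held about in proportion to the cells, and *Fn1* below it. The levels by class and day below are CPM after thinning.

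At day 10, *Postn* was at 3857 CPM (95% CI, 3813 to 3900) over 1577 *Aspn*-high cells, 540 (528 to 552) over 2952 *Cnmd*-high cells, 139 (125 to 153) over 592 *Col10a1*-high cells, and 451 (385 to 524) over 75 *Ifitm5*-high cells. At day 14 it stood at 2780 (2755 to 2805) in 3405 *Aspn*-high cells, 557 (543 to 572) in 1977 *Cnmd*-high cells, 192 (182 to 202) in 1527 *Col10a1*-high cells, and 208 (183 to 235) in 239 *Ifitm5*-high cells. *Aspn*-high cells lay above every other class on both days, and *Col10a1*-high and *Ifitm5*-high cells did not differ beyond counting error at day 14. Nearly all *Aspn*-high cells held a UMI of *Postn*, 98.4% at day 10 and 96.7% at day 14, and the middle of their range was wide, with the 10th and 90th percentiles at 3 and 41.4 UMIs of 5000 at day 10. *Aspn* was not cut at a gap in *Postn*, since cells with 3 or 4 *Aspn* UMIs averaged 10.3 *Postn* UMIs at day 10 and those with 5 or 6 averaged 14.3 (5.59 and 6.43 at day 14).

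*Tnn* followed the same order of classes. It stood at 874 (854 to 895), 165 (159 to 172), 29.1 (23.2 to 35.9), and 90.7 (62.8 to 127) CPM in *Aspn*-high, *Cnmd*-high, *Col10a1*-high, and *Ifitm5*-high cells at day 10, and at 616 (605 to 628), 199 (190 to 208), 47.2 (42.4 to 52.3), and 71.1 (56.8 to 88.0) at day 14. *Tnc* was also highest in *Aspn*-high cells but higher in *Ifitm5*-high than in *Cnmd*-high cells at day 10. Its levels were 651 (633 to 669), 70.2 (66.0 to 74.6), 68.2 (59.2 to 78.3), and 115 (83.0 to 154) in the same classes at day 10, and 486 (476 to 497), 93.8, 76.8 (70.7 to 83.2), and 118 (99.3 to 139) at day 14. At day 10 the *Tnc* levels of *Cnmd*-high and *Col10a1*-high cells did not differ beyond counting error.

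*Tgfbi* was high in both *Aspn*-high and *Cnmd*-high cells and low in the other classes. It stood at 381 CPM (367 to 395) in *Aspn*-high cells and 193 (186 to 200) in *Cnmd*-high cells at day 10, and at 381 (372 to 391) and 203 (194 to 212) at day 14. In *Col10a1*-high cells it was 38.5 (31.8 to 46.3) and 38.9 (34.6 to 43.6), and in *Ifitm5*-high cells 34.7 (18.5 to 59.3) and 30.1 (21.1 to 41.7), and these do not differ beyond counting error. The fold between *Aspn*-high and *Cnmd*-high cells was 7.14 for *Postn*, 9.27 for *Tnc*, 5.29 for *Tnn*, and 1.97 for *Tgfbi* at day 10, and 4.99 for *Postn*, 5.18 for *Tnc*, and 1.88 for *Tgfbi* at day 14, where *Tnn* had a log2 ratio of 1.63.

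*Sparc* and *Fn1* had other orders. *Sparc* was highest in *Ifitm5*-high cells, at 33003 CPM (32424 to 33589) at day 10 and 27489 (27192 to 27788) at day 14, and lowest in *Col10a1*-high cells, at 12008 (11883 to 12133) and 11338 (11263 to 11414). It lay between these in *Aspn*-high cells, at 17248 and 17964, and in *Cnmd*-high cells, at 19980 and 21870. *Fn1* was highest in *Cnmd*-high cells, at 6770 (6728 to 6812) and 6943 (6892 to 6995), and lowest in *Ifitm5*-high cells, at 3517 (3330 to 3712) and 2925 (2829 to 3023). In *Aspn*-high cells *Fn1* was 3946 and 4006, and in *Col10a1*-high cells 5726 and 4792. *Ifitm5*-high cells thus had the highest level of *Sparc* and the lowest of *Fn1*.

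**Figure D1:**
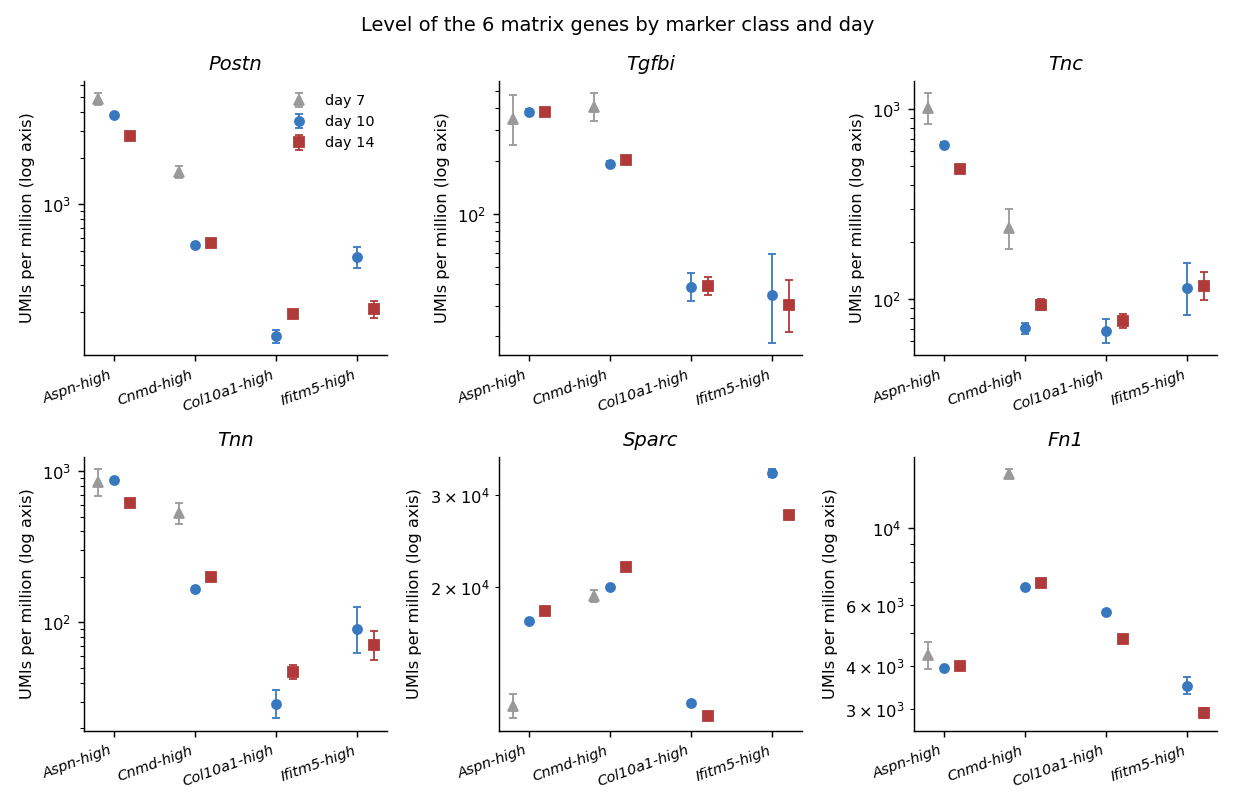
Level of each gene in CPM (log axis) by marker class (horizontal) and day (color and marker), with exact Poisson 95% intervals for counting error and classes of at least 20 cells only. *Postn*, *Tnc*, and *Tnn* sit highest in *Aspn*-high cells, *Sparc* in *Ifitm5*-high cells, and *Fn1* in *Cnmd*-high cells.

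Counted past 2-fold in *Aspn*-high cells over *Cnmd*-high cells, *Postn*, *Tnc*, and *Tnn* were higher, 3 of 6 genes on both days, against 12.8% of all genes measured at day 10 and 11.8% at day 14. *Tgfbi* lay just under that cut on both days and passed it without cells that pass more than 1 cut, with a log2 ratio of 1.18 on both. Over *Col10a1*-high cells, *Tgfbi* joined them, 4 of 6 genes against 17.5% of all genes at day 10 and 18.3% at day 14. Over *Ifitm5*-high cells, it was the same 4 of 6 genes, against 21.3% at day 10 and 18.3% at day 14. *Postn* was 27.8-fold higher than in *Col10a1*-high cells at day 10 and 14.5-fold at day 14, and 8.56-fold and 13.4-fold higher than in *Ifitm5*-high cells. Without cells that pass more than 1 cut the log2 ratio over *Col10a1*-high cells at day 14 was 4.77 in place of 3.86, and without the upper limit on genes that of day 10 was 4.11 in place of 4.80. *Sparc* and *Fn1* were past 2-fold in none of the 6 comparisons.

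Cells with *Ptprc*, at least 5000 UMIs, and no class cut passed gave a reference for free RNA. Cells with *Ptprc* that passed a cut for *Aspn*, *Cnmd*, *Col10a1*, or *Ifitm5* were thus left out of it. At day 7, 3307 such reference cells had a median of 8817 UMIs. Of these, 3.63% (95% CI, 3.02% to 4.32%) had a UMI of *Postn* after thinning, 1.33% of *Tnc*, and 1.57% of *Tnn*, against 95.7%, 87.0%, and 69.6% of the 23 *Aspn*-high cells of that library. *Tgfbi* was in 38.1% (36.4% to 39.8%) of the *Ptprc* cells at 137 CPM, so they do not serve as a background for it, and monocytes and macrophages are known to express it. At day 14 there were 98 such cells, with a median of 9513 UMIs, and 27.6% of them (19.0% to 37.5%) had a UMI of *Postn*. The 32.5% of *Col10a1*-high cells with a UMI of *Postn* at day 14 lies within that interval. By level, *Postn* stood at 159 CPM (126 to 199) in the *Ptprc* cells, which overlaps the intervals of both *Col10a1*-high and *Ifitm5*-high cells at day 14. The low *Postn* of most *Col10a1*-high cells was thus not told apart from free RNA at this depth, while 72 *Col10a1*-high cells held 5 to 14 *Postn* UMIs. In *Ifitm5*-high cells the level and the share differed, since 44.4% of them (37.9% to 50.9%) had a UMI of *Postn*, above the interval of the *Ptprc* cells. *Tnn* stood at 8.16 CPM (2.22 to 20.9) in the *Ptprc* cells of day 14, below its level in both classes. Day 10 had 2 cells of this kind and gave no reference.

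Within *Aspn*-high cells, *Tnn* followed *Postn* most closely of the 5 genes, *Tnc* and *Tgfbi* less, and *Sparc* and *Fn1* little. The Spearman r with *Postn* over the 1577 cells of day 10 was 0.55 for *Tnn*, 0.34 for *Tnc*, 0.23 for *Tgfbi*, 0.18 for *Sparc*, and 0.10 for *Fn1*. Over the 3405 cells of day 14 it was 0.49, 0.32, 0.33, 0.17, and 0.16. *Tnn* was at rank 1 of 5665 genes at day 10 and rank 2 of 5539 at day 14, *Tnc* ranked 10 and 14, and *Tgfbi* 26 and 13. All r are descriptions over cells of 1 library at 1 thinned depth, which share their library and its free RNA, so no p is given.

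Counted at an r of 0.2 or more in *Aspn*-high cells, 3 of the 5 other genes passed on both days, against 0.794% of all genes measured at day 10 and 1.03% at day 14. How high r can go is set by the counts themselves. When the 5000 UMIs of each cell were split into 2 disjoint parts of 2500, *Postn* correlated with itself at 0.825 at day 10 and 0.806 at day 14 in *Aspn*-high cells. The same measure was 0.629 and 0.528 for *Tnn*, 0.477 and 0.421 for *Tnc*, and 0.469 and 0.436 for *Tgfbi*. Between *Postn* in 1 part and the other gene in the other, r was 0.474 and 0.415 for *Tnn*, 0.281 and 0.260 for *Tnc*, and 0.192 and 0.271 for *Tgfbi*. *Sparc* correlated with itself at 0.853 and 0.865 and with *Postn* at 0.169 and 0.154 in these parts.

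**Figure D2:**
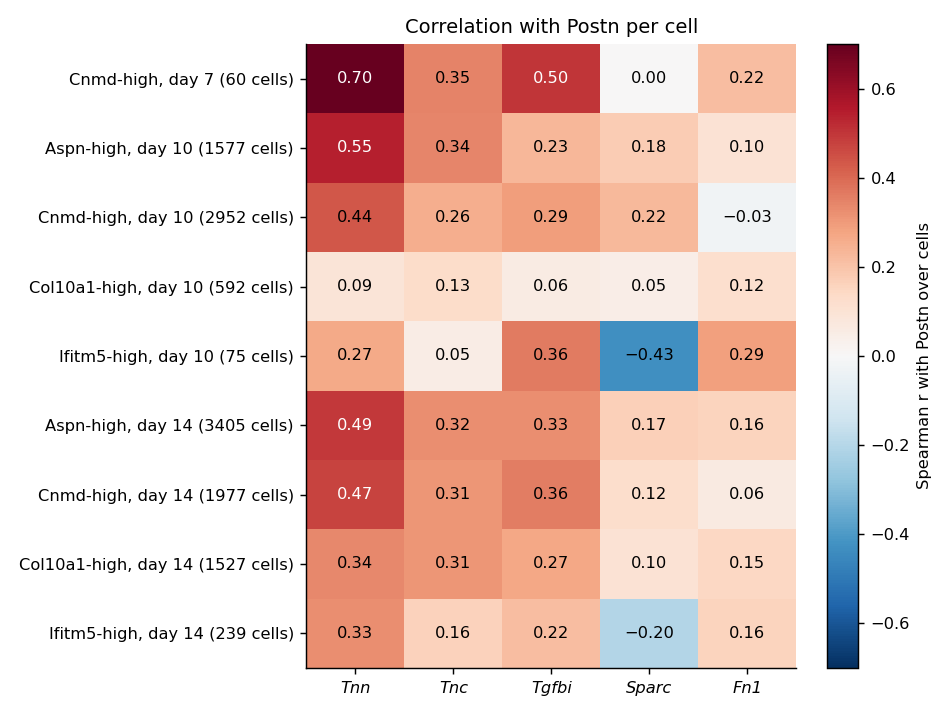
Spearman r with *Postn* over the cells of each class and day with at least 50 cells, for the 5 other genes (columns). *Tnn* is the darkest column in *Aspn*-high and *Cnmd*-high cells, r is at most 0.13 in *Col10a1*-high cells of day 10, and *Sparc* turns negative in *Ifitm5*-high cells.

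In *Cnmd*-high cells, where *Postn* was lower, *Tnn* again had the highest r of the 5 genes. There, r with *Postn* was 0.44 for *Tnn*, 0.26 for *Tnc*, 0.29 for *Tgfbi*, 0.22 for *Sparc*, and -0.025 for *Fn1* at day 10, so that 4 of 5 passed 0.2, against 1.32% of all genes. At day 14 it was 0.47, 0.31, 0.36, 0.12, and 0.062, and 3 of 5 passed, against 1.61%. *Tnn* was at rank 3 of 4916 genes at day 10 and rank 3 of 4836 at day 14. Without cells that pass more than 1 cut, r of *Tnc* was 0.195 at day 10 and 0.196 at day 14 and that of *Sparc* at day 10 was 0.190, all under 0.2. In the 60 *Cnmd*-high cells of day 7, r was 0.70 for *Tnn*, the highest of 5172 genes, 0.50 for *Tgfbi*, 0.35 for *Tnc*, and 0.22 for *Fn1*. That made 4 of 5 at 0.2 or more, against 9.55% of all genes in these few cells, and *Fn1* had 0.163 when thinned to 2000 UMIs.

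*Col10a1*-high cells had low r at day 10, in sparse counts. With 0.693 *Postn* UMIs per cell, r was 0.092 for *Tnn*, 0.13 for *Tnc*, 0.060 for *Tgfbi*, 0.049 for *Sparc*, and 0.12 for *Fn1*, and 0 of 5 passed 0.2, against 0.0603% of all genes. *Tnc* did pass at day 10 under 2 alternatives. It had 0.21 without cells that pass more than 1 cut and 0.30 as Pearson r on log2(UMIs + 1). At day 14, 3 of 5 passed, at 0.34 for *Tnn*, 0.31 for *Tnc*, and 0.27 for *Tgfbi*, against 1.36%. These values of day 14 were lower when cells that carry other markers were left out. Without the cells that pass more than 1 cut they were 0.15, 0.16, and 0.17, and with cells of at least 10000 UMIs they were 0.24, 0.23, and 0.18. In the 72 *Col10a1*-high cells of day 14 with 5 to 14 *Postn* UMIs, *Aspn* averaged 6.64 UMIs and the median raw depth was 9516, against 17865 in the class. *S100a8*, *S100a9*, and *Lyz2* had r with *Postn* of 0.24, 0.24, and 0.20 in that class, and the 6 hematopoietic markers summed to 320 CPM. Their part in the r of day 14 was not tested.

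In *Ifitm5*-high cells the counts were sparse, with 2.25 *Postn* UMIs per cell in 75 cells at day 10 and 1.04 in 239 cells at day 14. At day 10, r was 0.36 for *Tgfbi*, 0.29 for *Fn1*, 0.27 for *Tnn*, and 0.049 for *Tnc*, so that 3 of 5 passed 0.2, against 10.8% of all genes. The value of *Tgfbi* rests on 13 UMIs in 13.3% of the 75 cells. Between the disjoint parts of each cell, *Tgfbi* correlated with itself at only 0.122, against 0.849 for *Fn1* and 0.531 for *Tnn*. Its place above *Fn1* and *Tnn* is thus not settled. At day 14, *Tnn* had 0.33, the highest of 4691 genes, and *Tgfbi* 0.22, so that 2 of 5 passed, against 1.07%. *Tgfbi* then had 36 UMIs in 7.95% of the 239 cells, with up to 11 in a cell, and correlated with itself at 0.331. With another seed for the thinning *Tgfbi* had 0.157, under 0.2. *Sparc* went the other way, with r of -0.43 at day 10, rank 4725 of 4726, and -0.20 at day 14, rank 4690 of 4691. Thinned to 2000 UMIs the value of day 14 was -0.035. From cells without *Postn* to cells with 1 to 4 UMIs of it, *Sparc* went from 214 (209 to 220) to 143 (139 to 147) UMIs of 5000 at day 10 and from 147 (145 to 149) to 127 (124 to 129) at day 14.

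The level of *Tnn*, *Tnc*, and *Tgfbi* was higher at each step of *Postn* in *Aspn*-high cells. From cells without *Postn* to cells with 30 or more UMIs, *Tnn* went from 0.654 (0.381 to 1.05) through 1.46, 2.91, and 4.54 to 8.54 (8.23 to 8.86) UMIs of 5000 at day 10, in bins of 0, 1 to 4, 5 to 14, 15 to 29, and 30 or more. *Tnc* went from 1.42 to 4.85 (4.61 to 5.09) and *Tgfbi* from 0.731 (0.440 to 1.14) to 2.64 (2.47 to 2.82). At day 14, *Tnn* went from 0.732 (0.582 to 0.909) to 6.54 (6.29 to 6.80), *Tnc* from 1.34 (1.13 to 1.57) to 3.93 (3.74 to 4.13), and *Tgfbi* from 0.848 (0.686 to 1.04) to 3.27. *Tnn* thus spanned the widest range, and cells without a *Postn* UMI were few, 26 and 112.

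In cells with 5 to 29 *Postn* UMIs, *Tgfbi* in *Aspn*-high cells did not exceed that in *Cnmd*-high cells beyond counting error, and *Tnc* did. With 15 to 29 *Postn* UMIs at day 10, *Tgfbi* averaged 2.17 UMIs in 475 *Aspn*-high cells and 2.12 in 51 *Cnmd*-high cells, a ratio of 1.02 (95% CI, 0.838 to 1.26). *Tnn* averaged 4.54 and 3.92, a ratio of 1.16 (1.00 to 1.34), and *Tnc* 3.65 and 1.45, a ratio of 2.51 (1.99 to 3.22). These *Cnmd*-high cells also carried *Aspn*, with 11.6 UMIs on average at day 10 and 17.5 at day 14, so many pass both cuts. In the same bin at day 14 the ratios were 0.834 (0.702 to 0.998) for *Tgfbi*, 0.903 (0.786 to 1.04) for *Tnn*, and 1.52 (1.24 to 1.88) for *Tnc*. In the bin of 5 to 14 *Postn* UMIs, *Cnmd*-high cells that pass only the *Cnmd* cut were enough for a comparison, 284 at day 10 and 172 at day 14, with 1.62 and 1.44 *Aspn* UMIs on average. Against these, the ratio in *Aspn*-high cells was 0.971 (0.868 to 1.09) and 0.835 (0.744 to 0.939) for *Tgfbi*, 1.74 (1.57 to 1.94) and 1.30 (1.16 to 1.46) for *Tnn*, and 3.81 (3.27 to 4.45) and 3.88 (3.15 to 4.83) for *Tnc*. The order of the 3 genes was thus the same without the cells that pass both cuts. *Postn* itself was not fully matched in this bin. It averaged 9.06 UMIs in *Aspn*-high cells against 7.12 in these *Cnmd*-high cells at day 10, and 8.87 against 7.44 at day 14. Over all *Cnmd*-high cells, *Tnc* had a wider gap where *Postn* was low. Its ratio in cells with 1 to 4 *Postn* UMIs was 6.24 at day 10 and 3.72 (3.32 to 4.18) at day 14. In cells with 5 to 14 it was 3.40 and 2.23. Against cells that pass only the *Cnmd* cut, the *Tnc* ratio at 1 to 4 was 6.50 (5.58 to 7.57) and 4.54 (3.96 to 5.21). At day 14 that interval overlaps the one at 5 to 14 given above. In the bin of 1 to 4, over all *Cnmd*-high cells, *Tgfbi* had 1.10 (0.940 to 1.28) and 1.21 (1.10 to 1.33). The mean of *Postn* itself there was 2.56 in *Aspn*-high and 1.98 in *Cnmd*-high cells at day 10, so the bin did not match the classes fully. *Fn1* stayed lower in *Aspn*-high cells at every step, at 0.337 to 0.634 of its level in *Cnmd*-high cells at day 10.

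**Figure D3:**
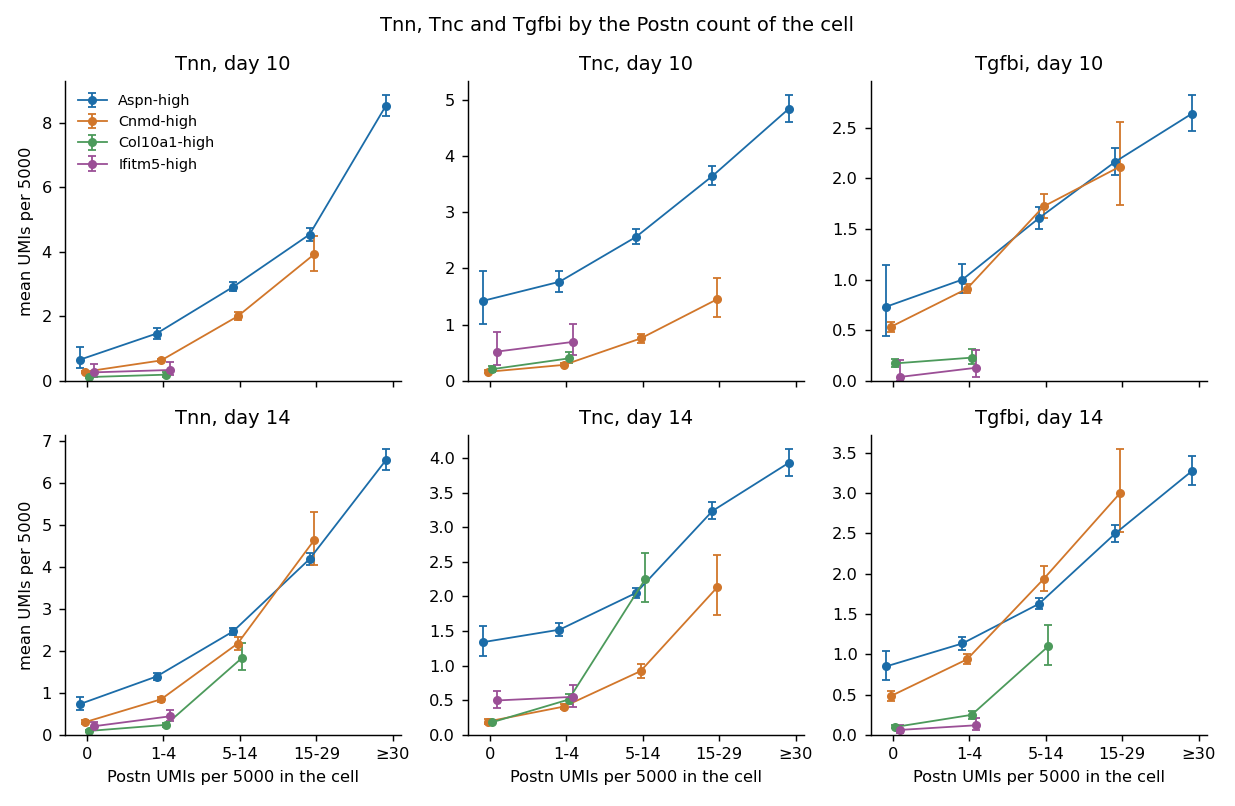
Mean *Tnn*, *Tnc*, and *Tgfbi* UMIs of 5000 (vertical) by the *Postn* count of the cell (horizontal), for each class (color) at day 10 (top) and day 14 (bottom), with exact Poisson 95% intervals and bins of at least 20 cells. The *Aspn*-high and *Cnmd*-high lines run close together for *Tgfbi* and apart for *Tnc*.

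*Tgfbi*, *Tnc*, and *Tnn* also correlated with each other, each pair below the r of *Tnn* with *Postn*. In *Aspn*-high cells, *Tnc* and *Tnn* had r of 0.33 at day 10 and 0.39 at day 14, *Tgfbi* and *Tnn* 0.26 and 0.37, and *Tgfbi* and *Tnc* 0.19 and 0.28. *Tgfbi* and *Fn1* had 0.27 and 0.22, above the r of *Fn1* with *Postn*. *Sparc* had -0.17 and 0.040 with *Tgfbi* and 0.20 and 0.23 with *Tnn*. When the cells of all 4 classes were pooled, r with *Postn* was 0.65 and 0.66 for *Tnn*, 0.57 and 0.56 for *Tnc*, and 0.40 and 0.51 for *Tgfbi* at days 10 and 14, and these values also hold the differences between classes.

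Of the 5 genes most like *Postn* in *Aspn*-high cells, 3 encode fibrillar collagen chains. By the mean r of days 10 and 14 over 5354 genes, *Col3a1* was first at 0.536, followed by *Tnn* at 0.520, *Col5a2* at 0.451, *Col5a1* at 0.440, and *Lrrc15*, a membrane protein of activated fibroblasts, at 0.415. *Tnc* was at rank 11, *Tgfbi* at 17, *Sparc* at 66, and *Fn1* at 128. The lowest were *Mgp*, an inhibitor of calcification, at -0.397, *Matn4* at -0.391, and *Igfbp7* at -0.329.

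Each of the other genes had its own neighbors. *Tnn* was most like *Postn*, *Col12a1* (0.441), and *Col3a1* (0.437), and *Tnc* was most like *Tnn* (0.362), *Postn* (0.333), and *Loxl2* (0.312). *Tgfbi* was most like the collagen-modifying enzyme genes *Loxl2* (0.397) and *Plod2* (0.353), with *C1qtnf3* (0.371) between them. *Sparc* was most like *Col1a2* (0.613), *Col1a1* (0.500), and *Dcn* (0.465), and *Fn1* was most like *Bgn* (0.389), *C1qtnf3* (0.369), and *Spp1* (0.345). *Postn* was among the 3 most similar genes only for the tenascins.

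**Figure D4:**
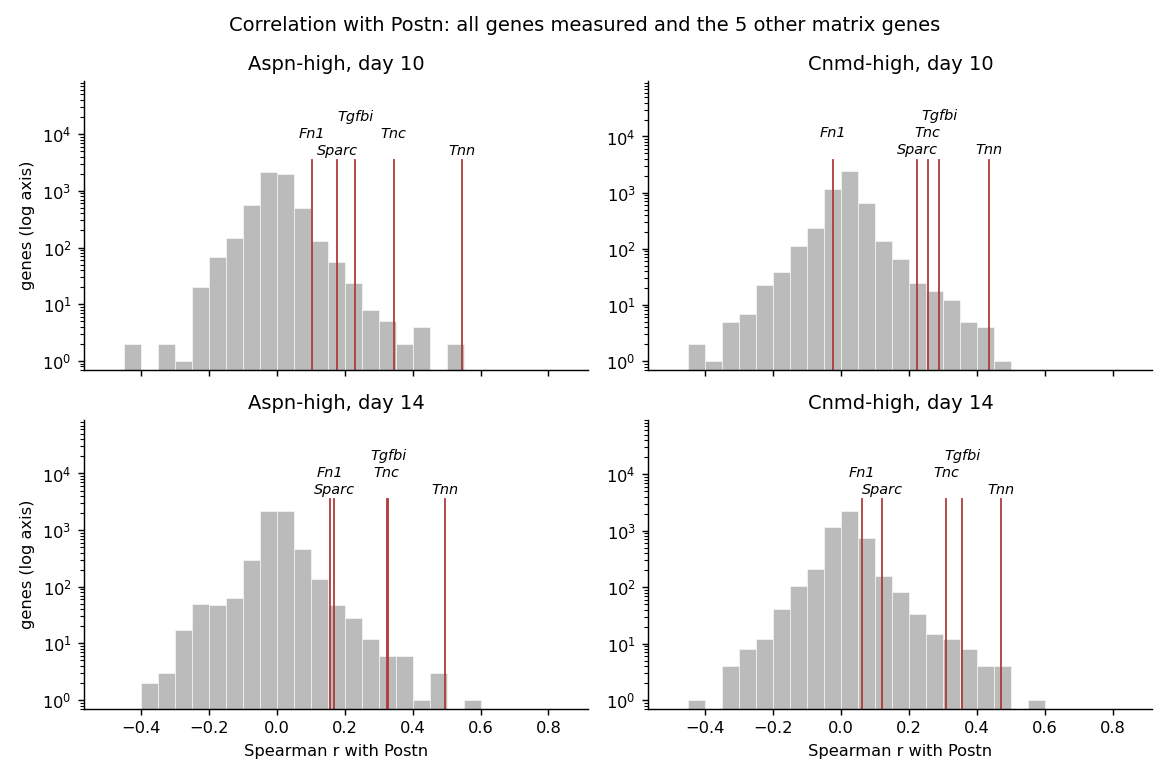
Number of genes (log axis) by Spearman r with *Postn* in steps of 0.05, for *Aspn*-high (left) and *Cnmd*-high (right) cells at day 10 (top) and day 14 (bottom), with the 5 other genes marked by lines. *Tnn* sits at or near the right end of all 4 panels, and *Fn1* and *Sparc* lie nearer the bulk of genes.

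Between day 10 and day 14, *Postn*, *Tnc*, and *Tnn* were lower in *Aspn*-high cells and *Tgfbi* was level. Day 14 over day 10, as a log2 ratio, was -0.47 (95% CI, -0.49 to -0.45) for *Postn*, -0.42 (-0.47 to -0.37) for *Tnc*, -0.50 (-0.55 to -0.46) for *Tnn*, 0.0018 (-0.061 to 0.065) for *Tgfbi*, 0.059 for *Sparc*, and 0.022 for *Fn1*. None passed 2-fold, 0 of 6 genes, against 1.09% of all genes in this class. In *Cnmd*-high cells, *Tnc* was higher by a log2 ratio of 0.42 (0.29 to 0.55) and *Tnn* by 0.27 (0.18 to 0.35), and 0 of 6 passed 2-fold, against 1.22%. The ratio of *Tnc* there was 0.099 without cells that pass more than 1 cut, and that of *Tnn* 0.079 with the cuts doubled. In *Col10a1*-high cells 0 of 6 passed, against 1.70%, and the ratio of *Postn* there was 0.47, or -0.35 without cells that pass more than 1 cut. In *Ifitm5*-high cells *Postn* alone passed, 1 of 6 genes against 8.10%, at -1.12 (-1.41 to -0.83). That call was lost with the cuts halved (-0.86), without the upper limit on genes (-0.87), and with cells of at least 10000 UMIs (-0.99). With 1 library a day, the day, the mice, and the library cannot be told apart.

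At day 7 only *Cnmd*-high cells, 60 in number, were enough for a comparison within the upper limit of 5000 genes. Without that limit, day 7 had 182 *Cnmd*-high and 56 *Aspn*-high cells. At day 10 the limit took *Cnmd*-high cells only from 3299 to 2952. The ratios to day 7 were not recomputed without it. *Postn* stood at 1633 CPM (1492 to 1785) in the 60 *Cnmd*-high cells of day 7 and was lower by a log2 ratio of -1.60 (-1.73 to -1.46) at day 10. The ratio was -1.07 for *Tgfbi*, -1.75 for *Tnc*, -1.67 for *Tnn*, and -1.09 for *Fn1*, but 0.058 for *Sparc*. *Fn1* stood at 14390 (13964 to 14826) at day 7. In the 23 *Aspn*-high cells of day 7, *Postn* stood at 4870 (4475 to 5290) and *Tnc* at 1009 (834 to 1210), the highest levels of the 3 days for both. The hematopoietic marker sums of these cells, given above, were 2104 and 2083 CPM at day 7 and 8.75 and 36.7 CPM at day 10, and their part in the difference was not tested.

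The relatives and partners of these proteins were taken as a list of 35 genes. Of the 25 measured in *Aspn*-high and *Cnmd*-high cells, 13 were at least 2-fold higher in *Aspn*-high cells at day 10 and 2 were lower, and 10 and 1 at day 14. Over all genes measured, 12.8% and 11.8% were higher, and 304 of 5934 and 296 of 5773 were lower. The other fasciclin-domain genes on the list, *Stab1* and *Stab2*, and the other tenascins, *Tnr* and *Tnxb*, were not among the 25. The list had a median log2 ratio of 1.03 and 0.86 against 0.27 and 0.25 over all genes. Among the SPARC family, *Fstl1* was higher by a log2 ratio of 2.26 on both days, and *Smoc2* had -1.45 and -0.83. Of the partners, *Ccn3*, a matricellular protein that binds periostin, had 3.60 and 4.13, *Lox*, lysyl oxidase, 2.01 and 1.58, *Bmp1* 1.37 and 1.30, *Col5a1* 2.11 and 1.88, and *Fbn1*, fibrillin-1, 1.92 and 2.02. Of the receptors, *Itgb5* had 1.48 and 1.59 and *Itgav* 1.31 and 0.96, which together form an integrin that binds periostin, while *Sdc4*, a syndecan, had -1.24 on both days.

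In *Aspn*-high cells, the relatives that followed *Postn* per cell were all among its partners. At an r of 0.2 or more with *Postn* in *Aspn*-high cells were 4 of the 25 at day 10 (*Col5a1*, *Lox*, *Col1a1*, *Col1a2*) and 5 at day 14, with *Col6a1* added, against 0.794% and 1.03% of all genes measured. None of the 6 receptors or of the 6 genes on the TGF-beta side passed on either day, and *Twist1*, a transcription factor known to act on *Postn*, had r of 0.072 and -0.024. *Ccn3* had -0.18 and -0.074, *Fbn1* -0.17 and 0.034, and *Fstl1* -0.018 and 0.10. In *Cnmd*-high cells, by contrast, *Fstl1* of the SPARC family had 0.33 and 0.32 with *Postn*. The values that follow are again of *Aspn*-high cells. *Col1a1* had r of 0.41 and 0.34 with *Tnn* but 0.011 and 0.061 with *Tgfbi*, whereas *Col6a1* had 0.33 and 0.37 with *Tgfbi*. Over the 25 genes the median r was 0.041 at day 10 and 0.047 at day 14, against -0.0021 and 0.0015 over all genes.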

How the data were processed

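The data were 3 droplet libraries of sorted mouse callus cells, 1 for each day. The authors deposited whole UMI counts per gene and barcode without normalization. The matrix headers name Cell Ranger 3.1.0 and the submitters' notes Cell Ranger 3.0 with mm10, and the labels and the paper name different versions of the 10x 3′ kit. From the counts, cells of 500 to 5000 genes, at most 10% mitochondrial UMIs, and at most 5% hemoglobin UMIs were taken, after the study's limits, with no UMI of *Ptprc* and at least 5000 UMIs. Each cell was thinned without replacement to 5000 UMIs (seed 1). Levels have exact Poisson intervals, ratios and shares of cells exact (Clopper-Pearson) binomial intervals, at 95%. Genes with a mean of at least 0.1 UMI entered the counts past 2-fold and the Spearman r, in classes of at least 50 cells. No p-values were computed, since cells of 1 library are not replicates. Named genes are the 6 genes, the list of relatives, the cell type markers, and the genes with the highest and lowest mean r. The 6 genes, the lists, and the cuts were chosen with earlier results of these data known. Scrublet, run through scanpy 1.11.5, called 0, 3, and 3 cells and so had not worked at its own threshold, and the 6% of cells with the highest scores were left out as an alternative. The procedures were tested on simulated data. Python 3.11.15, numpy 2.4.6, and scipy 1.17.1 were used.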

Additional observations from a re-analysis of the deposited data

Results flagged for a closer look

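For 5 of the 6 genes, flagged here, the day 14 over day 10 ratio went 1 way in 1 class and the other way in another. *Tgfbi* was not flagged but also had both signs, with log2 ratios of 0.068 in *Cnmd*-high and -0.20 in *Ifitm5*-high cells. The first was -0.060 when thinned to 2000 UMIs, and the second was 0.18 without the upper limit on genes. The difference between the classes was not tested for any gene, since each class and day came from 1 library. For *Postn* the log2 ratio was 0.47 in *Col10a1*-high and -1.12 in *Ifitm5*-high cells, a difference of 1.59. Without cells that pass more than 1 cut, the value in *Col10a1*-high cells was -0.35, and that of *Tnn* there, given next, was -0.17, so both signs rest on those cells. For *Tnn* it was 0.70 in *Col10a1*-high and -0.50 in *Aspn*-high cells, a difference of 1.20. For *Tnc* it was 0.42 in *Cnmd*-high and -0.42 in *Aspn*-high cells, a difference of 0.84. Without cells that pass more than 1 cut, the value of *Tnc* in *Cnmd*-high cells was 0.099. For *Sparc* the ratios were 0.13 in *Cnmd*-high and -0.26 in *Ifitm5*-high cells, a difference of 0.39. For *Fn1* they were 0.036 and -0.27 in the same classes, a difference of 0.30. Without thinning, the value of *Fn1* in *Cnmd*-high cells was -0.0069, so its sign there is not settled.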

How the results depend on the processing

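No direction of a value past 2-fold or of an r at 0.2 or more turned under any alternative. Of 1135 recomputed values, 803 stayed within the 95% interval of the value reported and 332 did not. The log2 ratio of *Postn* in *Aspn*-high over *Cnmd*-high cells, 2.84 at day 10 and 2.32 at day 14, was 2.70 and 2.12 with the cuts halved, 3.02 and 2.73 with the cuts doubled, 3.24 and 2.83 without cells that pass more than 1 cut, 2.74 and 2.24 without an upper limit on genes, 2.88 and 2.38 with cells of at least 10000 UMIs, 2.98 and 2.47 without thinning, and 2.91 and 2.41 without the 6% of highest Scrublet scores, an alternative chosen after seeing the data. Thinned to 2000 UMIs it was 2.67 at day 10. At that depth, r with *Postn* in *Aspn*-high cells was 0.462 and 0.382 for *Tnn*, 0.159 and 0.241 for *Tgfbi*, and 0.254 for *Tnc* at day 14, and with the cuts doubled r of *Tnc* at day 10 was 0.391. *Tgfbi* at day 10 then lay under an r of 0.2, as it did with the cuts doubled (0.194). The cause was not tested. In *Col10a1*-high cells of day 14, r of *Tnn* ran from 0.153 without cells that pass more than 1 cut to 0.501 as Pearson r on log2(UMIs + 1). The ratios at matched *Postn* without cells that pass more than 1 cut were likewise added after seeing the data. No library could be left out, since each day had 1. No paired analysis was possible because each group holds 1 library.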
